A study of Mus musculus with 16 samples.

Results

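Collagens are the main structural proteins of the extracellular matrix, and each collagen chain is encoded by its own gene. The genes described here are those whose symbol in the deposited tables consists of Col, a type number, the letter a and a chain number. Of 55426 genes in the table, 44 bear such a name, and 41 of them reached the chosen minimum of 0.1 TPM (a transcript level scaled to transcript length and library size) on average over 16 libraries. Col2a1 (0.069 TPM), Col9a1 (0.035 TPM) and Col19a1 (0.03 TPM) lay just below that minimum, and Col10a1 (0.153 TPM), Col17a1 (0.226 TPM) and Col28a1 (0.467 TPM) just above it. All 41 had enough counts to be tested.

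The study sequenced poly(A) RNA from 1 ovary of each of 16 female C57BL/6NHsd mice, 4 per group, which were given weekly injections from an age of 9 to 10 weeks. On T mice received 0.9 mg testosterone enanthate, an ester that releases the hormone slowly, for 6 weeks and were killed at 16 weeks of age, beside oil-injected On T controls of the same age. Post T mice had the same course, which was then stopped, and were killed after 4 estrous cycles at 24 to 28 weeks of age, beside oil-injected Post T controls of 24 to 28 weeks. All groups share the strain, the sesame oil vehicle and collection in diestrus. Each library represents a whole ovary, so fewer cells of a type and less RNA per cell cannot be told apart.

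Collagen chains wind into triple helices. Fibrillar collagens (types I, III and V in soft tissue) form the cables of connective tissue. Type IV collagen forms the sheet-like network of basement membranes, which in the ovary surround every growing follicle and every vessel. The remaining classes link, anchor or organise these scaffolds: type VI forms beaded filaments, FACIT collagens sit on fibril surfaces, and multiplexins (types XV and XVIII) lie in or next to basement membranes. By class, 10 of the members were fibrillar, 6 were of type IV and 25 belonged to other classes.

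The libraries held 26598055 to 52659637 expected counts. Granulosa cell markers (7 genes, 1831 to 5710 TPM summed) and oocyte markers (5 genes, 78.5 to 187 TPM summed) were present in every library. Luteal markers, 6 genes of the progesterone-making corpus luteum, summed to 3888 to 4719.9 TPM in On T controls and 499 to 1776 in On T, and 5 of the 6 fell. They summed to 3102 to 5427 TPM in Post T controls and 1077 to 2535 in Post T, and 4 of the 6 fell. Stromal markers (8 genes) summed to 325 to 357 TPM in On T controls, 393 to 661 in On T, 253 to 425 in Post T controls and 419.99 to 504 in Post T. Of these 8 markers, 3 rose on testosterone and 2 afterwards, while the log2 fold change was below 0 for 2 on testosterone and for 4 afterwards. Smooth muscle markers (7 genes) summed to 1028 to 1159 TPM in On T controls and 1234 to 2559.7 in On T, where 2 of 7 rose. Macrophage markers (5 genes) summed to 146 to 275 TPM in Post T controls and 928 to 1281 in Post T, where 3 of 5 rose. They summed to 104 to 145 TPM in On T controls and 148 to 275 in On T. There 2 of 5 rose (Cd68 and Gpnmb) and 2 others had a log2 fold change below 0. Theca cell markers (4 genes) summed to 1156 to 1908 TPM in Post T controls and 2554 to 4014 in Post T, where 2 of 4 rose (Aldh1a1 and Insl3), and to 1389 to 3131 in On T controls and 1759 to 3220.5 in On T. Endothelial markers (7 genes) overlapped, at 193 to 271 TPM in On T controls, 213 to 358 in On T, 249.6 to 299.8 in Post T controls and 254 to 294 in Post T. Rises and falls counted here are those at an edgeR adjusted p under 0.05, which 9.27% of all genes passed on testosterone and 12.3% afterwards. The part of these markers in the collagen results was not tested. Library 2 of On T and library 1 of the Post T controls stood apart: the first held the highest collagen sum of the On T group (2057 TPM, against 1224 to 1529 in the others) and that group's highest stromal (661 TPM) and smooth muscle (2559.7 TPM) sums, and the second held the lowest collagen sum of its group (1266 TPM, against 1791 to 1892). Each had the fewest counts of its group, 29004008 and 26598055. The mouse of the second was 24 weeks old, beside 26 to 28 weeks for the other Post T controls. The part of depth or age in the values of these libraries was not tested.

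The comparison of On T with its controls asks what collagen RNA does while testosterone is being given, and 14 of the 41 members were called at an edgeR adjusted p under 0.05, 6 of them higher and 8 lower. That is 34.1% of the members, beside 9.27% of all 18833 genes tested (4.24% higher and 5.03% lower). The fibrillar chains called were all lower (Col1a1, Col3a1, Col5a2 and Col5a3), and the type IV chains called were all higher (Col4a3, Col4a4 and Col4a6). Among the other classes, Col6a4, Col8a2 and Col23a1 rose and Col7a1, Col8a1, Col15a1 and Col18a1 fell. The median log2 fold change of the members was -0.12, beside -0.01 for all genes, and by class it was -0.56 for fibrillar, 0.46 for type IV and -0.05 for other chains. Without library 2 of On T and library 1 of the Post T controls, a choice made after seeing the data, 18 members were called, 6 higher and 12 lower, beside 10% of all genes, with Col4a1, Col4a2, Col5a1 and Col6a1 added among the lower ones.

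After testosterone was stopped, 10 of the 41 members were called against the Post T controls, 2 higher and 8 lower. That is 24.4% of the members, beside 12.3% of all genes (7.49% higher and 4.81% lower). Col6a4 and Col22a1 rose, and Col4a1, Col4a2, Col5a2, Col7a1, Col8a1, Col15a1, Col18a1 and Col27a1 fell. The median log2 fold change was -0.21 over the members and -0.01 over all genes, and by class it was -0.32 for fibrillar, -0.03 for type IV and -0.11 for other chains. Called in both comparisons were 6 members, Col5a2, Col7a1, Col8a1, Col15a1 and Col18a1 lower and Col6a4 higher, which is 42.9% of those called on testosterone and 60% of those called afterwards. Without the same 2 libraries, 12 members were called, 1 higher and 11 lower, beside 12.7% of all genes.

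Between the older and the younger controls, 0 of 41 members and 0% of all genes were called by edgeR. At an unadjusted p under 0.05 there were 1 member and 1892 genes, and DESeq2 called 0 members and 173 genes. The TPM of the 4 On T libraries lay wholly above or below that of the On T controls for 11 members (26.8%, beside 13.7% of all genes), and the same held for 8 members between Post T and its controls (19.5%, beside 14.7%). Between the control groups it held for 0 members, beside 4.53% of all genes.

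**Figure D1:**
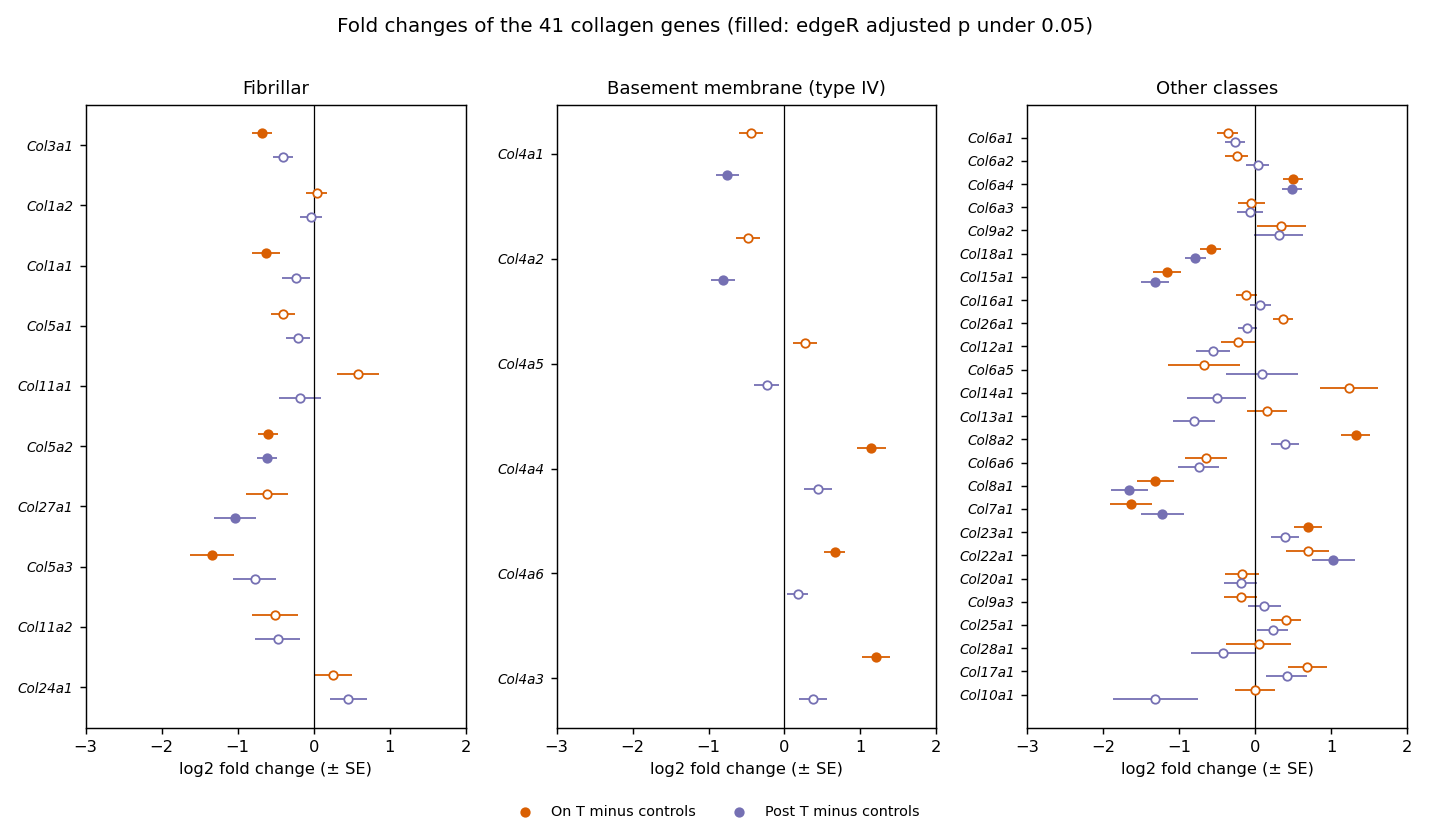
Log2 fold changes (± SE, edgeR, 4 libraries per group) of the 41 collagen genes by class, each class ordered by mean TPM, for On T (orange) and Post T (purple) against their own controls. Filled points have an adjusted p under 0.05: the 4 fibrillar chains called on testosterone lie below 0 and the 3 type IV chains called lie above it.

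The ovary's collagen RNA was dominated by few chains. Col3a1 averaged 297.7 TPM over the 16 libraries, Col1a2 224, Col4a1 204, Col6a1 152 and Col4a2 115, and these 5 made up 61.6% of all collagen TPM. Another 14 members lay between 10 and 100 TPM, 16 between 1 and 10, and 6 below 1. The members' TPM summed to 1727 to 2103 in On T controls, 1224 to 2057 in On T, 1266 to 1892 in Post T controls and 1189 to 1498 in Post T. The treated groups lay lower on average, yet each overlapped its controls in this sum. Type IV chains made up 20.6% to 24.9% of collagen TPM in Post T controls and 15.8% to 18.8% in Post T, with no overlap. On testosterone the type IV share, 21.4% to 24.7%, lay within the range of its controls, 20.0% to 26.6%. The multiplexin share was 4.38% to 5.45% in On T controls against 3.40% to 3.61% in On T, and 4.72% to 5.89% in Post T controls against 2.95% to 3.37% in Post T. Type VI chains took 26.7% to 28.2% of the Post T sum and 20.2% to 24.2% of that of its controls. Their own sums overlapped, at 319 to 400 TPM in Post T and 307 to 444 TPM in its controls.

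**Figure D2:**
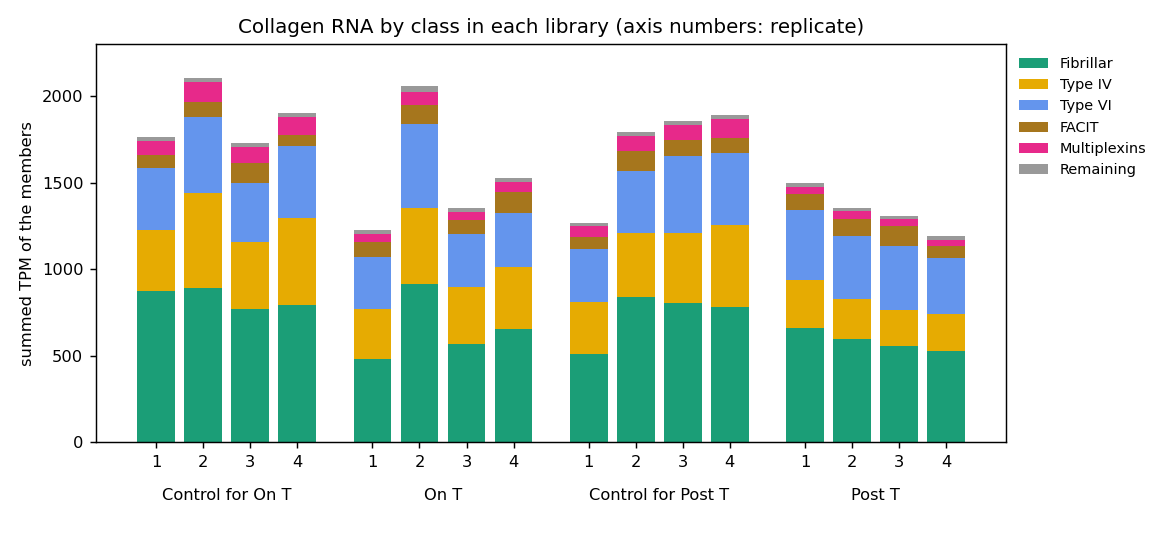
Summed TPM of the collagen members in each of the 16 libraries, stacked by class, where axis numbers are replicates within a group. The tallest On T bar is library 2 (2057 TPM), the shortest Post T control bar is library 1 (1266 TPM), and the type IV segment is smallest in the Post T libraries.

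Fibrillar chains moved down or passed no test. Col3a1, the single chain of type III collagen, which makes the fine reticular fibres of soft organs, measured 407, 394, 336 and 345 TPM in On T control libraries 1 to 4 (the order used throughout) and 161, 377, 205 and 217 in On T libraries. Of the On T libraries, library 2 lay among its controls and the other 3 lay below them. The means were 370.3 ± 35.0 and 239.9 ± 94.3 TPM (SD, n = 4), a log2 fold change of -0.68 with SE 0.13 and edgeR adjusted p = 0.00375. Col3a1 measured 244, 377, 359.7 and 368 TPM in Post T controls and 253, 233, 247 and 240.4 in Post T (log2 fold change -0.41 with SE 0.13 and edgeR adjusted p = 0.0575). Post T control library 1 lay among the Post T libraries and the other 3 controls lay above them. Without that control library the Post T log2 fold change of Col3a1 was -0.47 and its edgeR adjusted p was 0.0356. Over all omissions of 1 library this p ran from 0.0186 to 0.161.

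Type I collagen, the commonest cable-forming collagen, is assembled from the products of Col1a1 and Col1a2, of which only Col1a1 was called on testosterone. Col1a1 measured 121, 123, 105 and 107 TPM in On T controls and 49.8, 108, 67.8 and 70.4 in On T, again with library 2 among the controls. Its means were 114 ± 9.16 and 74.1 ± 24.6 TPM (SD, n = 4; log2 fold change -0.63 with SE 0.19 and edgeR adjusted p = 0.0418). That call is fragile, since leaving out any 1 of 13 of the 16 libraries lifted its adjusted p above 0.05, at most to 0.141. Col1a2 measured 249, 254, 225 and 240.1 TPM in On T controls and 194, 321, 219.6 and 258 in On T, which overlap (log2 fold change 0.04 with SE 0.14 and edgeR adjusted p = 0.911). The TPM ratio of Col1a1 to Col1a2 was 0.445 to 0.485 in On T controls and 0.256 to 0.338 in On T, with no overlap and with library 2 the highest of the On T values. The exact permutation test of this ratio, described below with type VIII, had an adjusted p of 0.0858. In the Post T cohort Col1a1 measured 55.3, 112, 97.1 and 96.2 TPM in controls and 87.5, 76.6, 68.2 and 64.4 in Post T (log2 fold change -0.23 with SE 0.19 and edgeR adjusted p = 0.519). Col1a2 there measured 149, 230.3, 239 and 216 TPM in controls and 242, 211, 175 and 163 in Post T (log2 fold change -0.03 with SE 0.14 and edgeR adjusted p = 0.939). Both chains overlapped between those groups, and so did their ratio, at 0.372 to 0.486 and 0.362 to 0.395.

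Type V chains are built into fibrils of types I and III and help set their width. Col5a2 measured 23.3, 22.7, 24.7 and 22.2 TPM in On T controls and 13.2, 17.0, 14.0 and 15.3 in On T, where every library lay below every control (log2 fold change -0.60 with SE 0.13 and edgeR adjusted p = 0.00754). In the Post T cohort it measured 13.6, 26.4, 22.1 and 20.7 TPM in controls and 13.2, 15.5, 11.5 and 11.6 in Post T (log2 fold change -0.62 with SE 0.13 and edgeR adjusted p = 0.00398). There 3 controls lay above all Post T libraries and library 1 lay among them. Col5a3, a low-level chain, measured 1.52, 2.57, 2.3 and 1.70 TPM in On T controls and 0.39, 1.24, 0.94 and 0.66 in On T, without overlap (log2 fold change -1.34 with SE 0.29 and edgeR adjusted p = 0.00677). After testosterone its log2 fold change was -0.78 with SE 0.28 and edgeR adjusted p = 0.0925. Col5a1, the main partner of Col5a2, averaged 43.2 ± 5.79 TPM in On T controls and 35.8 ± 12.3 in On T (SD, n = 4; log2 fold change -0.40 with SE 0.16 and edgeR adjusted p = 0.137), and 38.2 ± 10.2 and 31.3 ± 3.56 in the Post T cohort (edgeR adjusted p = 0.488). Without On T library 2 the On T log2 fold change of Col5a1 was -0.55 with an edgeR adjusted p of 0.0333. Over all omissions of 1 library this p ran from 0.0333 to 0.348. Col27a1, a fibrillar chain best known from cartilage, measured 7.02, 12.2, 21.5 and 23.1 TPM in Post T controls and 8.29, 7.82, 7.29 and 6.69 in Post T (log2 fold change -1.04 with SE 0.28 and edgeR adjusted p = 0.0201). Control library 1 lay within the Post T range, and leaving out any 1 of 4 libraries lifted this p above 0.05, at most to 0.0838. The other fibrillar members, Col11a1, Col11a2 and Col24a1, passed in neither comparison.

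The 6 type IV genes lie in 3 pairs that start head to head on opposite strands. Col4a1 and Col4a2 (chromosome 8) encode the network found in nearly all basement membranes, while Col4a3 and Col4a4 (chromosome 1) and Col4a5 and Col4a6 (chromosome X) encode chains of more restricted networks. In the GENCODE annotation of GRCm38, Col4a1 starts at 11312826 on the minus strand and Col4a2 at 11312805 on the plus strand, so that the genes share 22 bases. Col4a4 starts at 82586849 on the minus strand and Col4a3 at 82586921 on the plus strand, with 71 bases between them, and the starts of Col4a6 and Col4a5 lie 1308 bases apart. The 71 bases between Col4a4 and Col4a3 (GRCm38.p6, chr1:82586850-82586920, RefSeq sequence, minus strand) are shown because the genes that start on either side of them both rose on testosterone. None of the motifs named below occurs in it.
Col4a3-Col4a4 gap: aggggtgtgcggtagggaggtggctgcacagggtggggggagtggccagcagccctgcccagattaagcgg

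On testosterone the type IV chains called were 3 of the rarer ones, Col4a3, Col4a4 and Col4a6. Whether the pairs differed from each other was not tested. Col4a3 measured 1.93, 1.67, 1.76 and 2.03 TPM in On T controls and 3.54, 5.89, 3.18 and 4.67 in On T, and Col4a4 measured 6.19, 6.22, 5.43 and 6.93 and 9.85, 19.1, 10.6 and 15.1. Every On T library lay above every control for both genes, and library 2 was the highest. The log2 fold change was 1.21 with SE 0.19 and edgeR adjusted p = 0.000546 for Col4a3 and 1.14 with SE 0.19 and edgeR adjusted p = 0.000889 for Col4a4. Col4a6 measured 4.13, 5.26, 4.21 and 3.96 TPM in On T controls and 7.53, 6.67, 5.58 and 7.59 in On T, also without overlap (log2 fold change 0.66 with SE 0.14 and edgeR adjusted p = 0.00608). Its neighbour Col4a5, the more abundant of that pair, averaged 21.6 ± 2.28 TPM in On T controls and 26.0 ± 4.30 in On T (SD, n = 4; log2 fold change 0.27 with SE 0.16 and edgeR adjusted p = 0.355). Exons of C430014B12Rik on the other strand cover 5.65% of the exon bases of Col4a3, and whether counting used strand is not given in the sources used here.

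The abundant chains showed a fall after testosterone. Col4a1 measured 176, 210.2, 240.5 and 273 TPM in Post T controls and 157, 129, 121 and 121 in Post T, and Col4a2 measured 100.1, 125, 135 and 163 and 89.2, 70.5, 61.1 and 64.8. Every Post T library lay below every control for both genes, Post T control library 1 included. The log2 fold change was -0.75 with SE 0.15 and edgeR adjusted p = 0.00301 for Col4a1 and -0.81 with SE 0.16 and edgeR adjusted p = 0.00207 for Col4a2. On testosterone Col4a1 measured 202, 327, 225 and 300.5 TPM in controls and 155, 247, 189.8 and 194 in On T (log2 fold change -0.44 with SE 0.15 and edgeR adjusted p = 0.0907). Col4a2 measured 119, 182, 132 and 171 TPM in controls and 80.8, 139.7, 102 and 107 in On T (log2 fold change -0.48 with SE 0.16 and edgeR adjusted p = 0.068). The groups overlapped for both. Leaving out On T library 2 or On T control library 1 brought both below an edgeR adjusted p of 0.05. The values were 0.0438 and 0.0239 without the former and 0.0451 and 0.0381 without the latter. Over all omissions of 1 library they reached at most 0.291 for Col4a1 and 0.222 for Col4a2. After testosterone Col4a3 measured 1.00, 1.86, 1.54 and 2.01 TPM in controls and 2.21, 2.09, 1.46 and 2.15 in Post T (log2 fold change 0.37 with SE 0.19 and edgeR adjusted p = 0.25). Col4a4 there measured 3.74, 5.36, 5.56 and 6.29 and 8.27, 7.06, 4.62 and 7.78 (log2 fold change 0.44 with SE 0.19 and edgeR adjusted p = 0.154), so both overlapped their controls. The ratio of Col4a1 to Col4a2 was 1.70 to 1.80 in On T controls, 1.77 to 1.92 in On T, 1.68 to 1.78 in Post T controls and 1.76 to 1.97 in Post T.

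**Figure D3:**
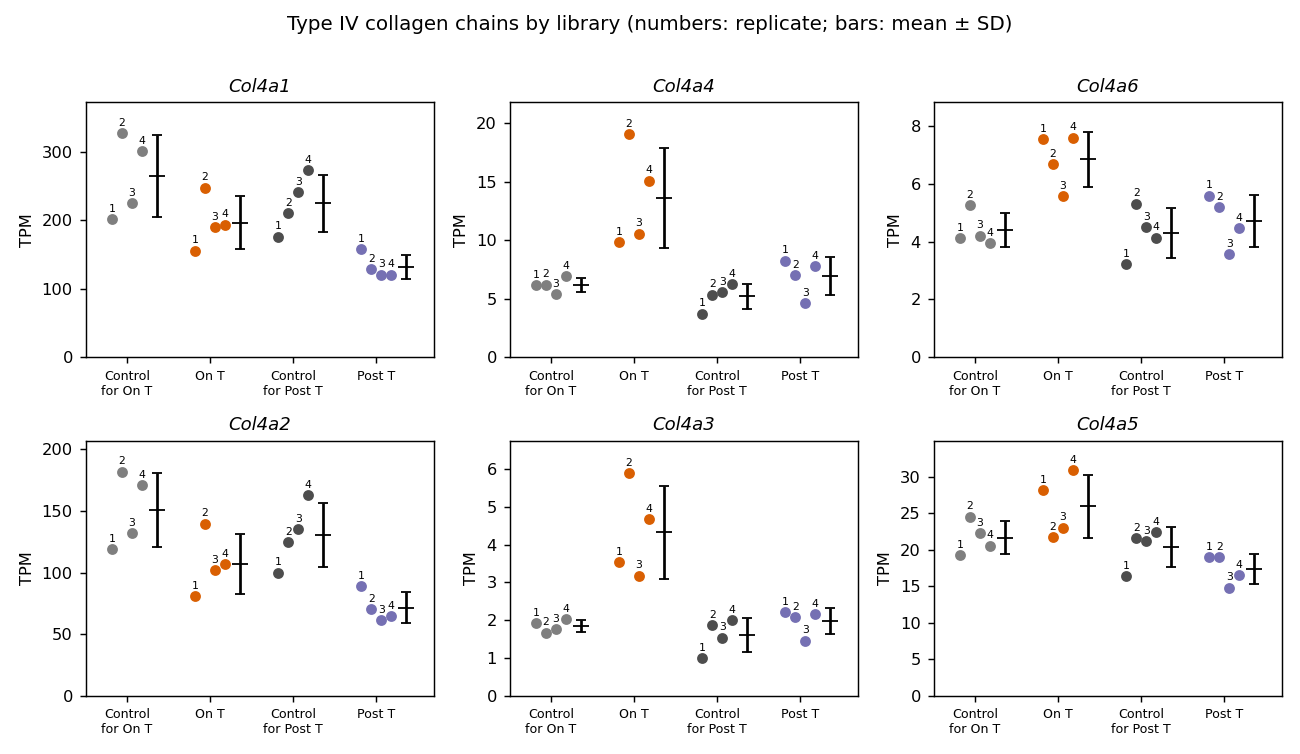
TPM of the 6 type IV genes in each library, with one column of panels per head-to-head pair, replicate numbers above the points and mean ± SD beside them. Col4a3, Col4a4 and Col4a6 are highest in On T, and Col4a1 and Col4a2 are lowest in Post T, where no library reaches the lowest control.

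Type VIII collagen is a short-chain network collagen of vessel walls and specialised basement membranes, and its genes moved in opposite directions on testosterone. Col8a1 (GRCm38 chr16:57624258-57754737, minus strand) and Col8a2 (chr4:126286793-126314330, plus strand) lie on different chromosomes. The bases before each start are printed to set side by side the promoters of these oppositely moving genes, in GRCm38.p6 from RefSeq, 250 for Col8a1 (chr16:57754738-57754987, minus strand) and 249 for Col8a2 (chr4:126286544-126286792, plus strand). Capitals mark the GC box GGGCGG or its reverse complement CCGCCC, with 4 matches in each, of which the last pair in Col8a2 overlaps.
Col8a1 upstream: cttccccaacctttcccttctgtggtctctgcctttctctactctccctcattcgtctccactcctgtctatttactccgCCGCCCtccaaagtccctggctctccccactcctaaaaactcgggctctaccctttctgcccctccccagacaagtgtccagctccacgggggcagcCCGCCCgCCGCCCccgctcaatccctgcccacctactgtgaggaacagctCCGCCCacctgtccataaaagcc
Col8a2 upstream: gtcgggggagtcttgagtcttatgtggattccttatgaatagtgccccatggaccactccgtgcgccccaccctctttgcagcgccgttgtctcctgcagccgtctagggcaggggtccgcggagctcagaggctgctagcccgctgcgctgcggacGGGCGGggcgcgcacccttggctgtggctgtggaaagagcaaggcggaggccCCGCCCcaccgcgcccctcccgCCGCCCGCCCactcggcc

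Col8a1 measured 2.31, 3.85, 3.61 and 3.26 TPM in On T controls and 0.98, 1.60, 1.22 and 1.40 in On T, with every On T library below every control (log2 fold change -1.32 with SE 0.24 and edgeR adjusted p = 0.00213). Col8a2 measured 2.02, 1.66, 1.47 and 2.11 TPM in On T controls and 3.91, 6.35, 3.12 and 4.98 in On T, with every On T library above every control (log2 fold change 1.32 with SE 0.19 and edgeR adjusted p = 0.000274). The ratio of Col8a1 to Col8a2 was 1.14 to 2.46 in On T controls and 0.251 to 0.391 in On T. After testosterone Col8a1 measured 1.35, 4.25, 2.45 and 2.72 TPM in controls and 0.87, 0.95, 0.81 and 0.66 in Post T, again without overlap (log2 fold change -1.66 with SE 0.25 and edgeR adjusted p = 0.000165). Col8a2 there measured 1.73, 2.27, 2.21 and 2.40 TPM in controls and 3.32, 2.91, 2.20 and 2.60 in Post T, which overlap (log2 fold change 0.39 with SE 0.19 and edgeR adjusted p = 0.219). The ratio was 0.780 to 1.87 in Post T controls and 0.254 to 0.368 in Post T, without overlap. In all, 6 chain ratios were compared in both cohorts, 12 comparisons. A two-sided exact permutation test of 4 against 4 libraries can give no p below 0.0286. That value was reached by the ratio of Col8a1 to Col8a2 in both cohorts, Col1a1 to Col1a2 on testosterone and Col6a1 to Col6a2 after it, with adjusted exact p-values of 0.0858, so none of the 12 passed adjustment. With this floor a ratio could pass adjustment only if most of the 12 comparisons reached it, so the outcome does not decide whether these ratios changed.

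**Figure D4:**
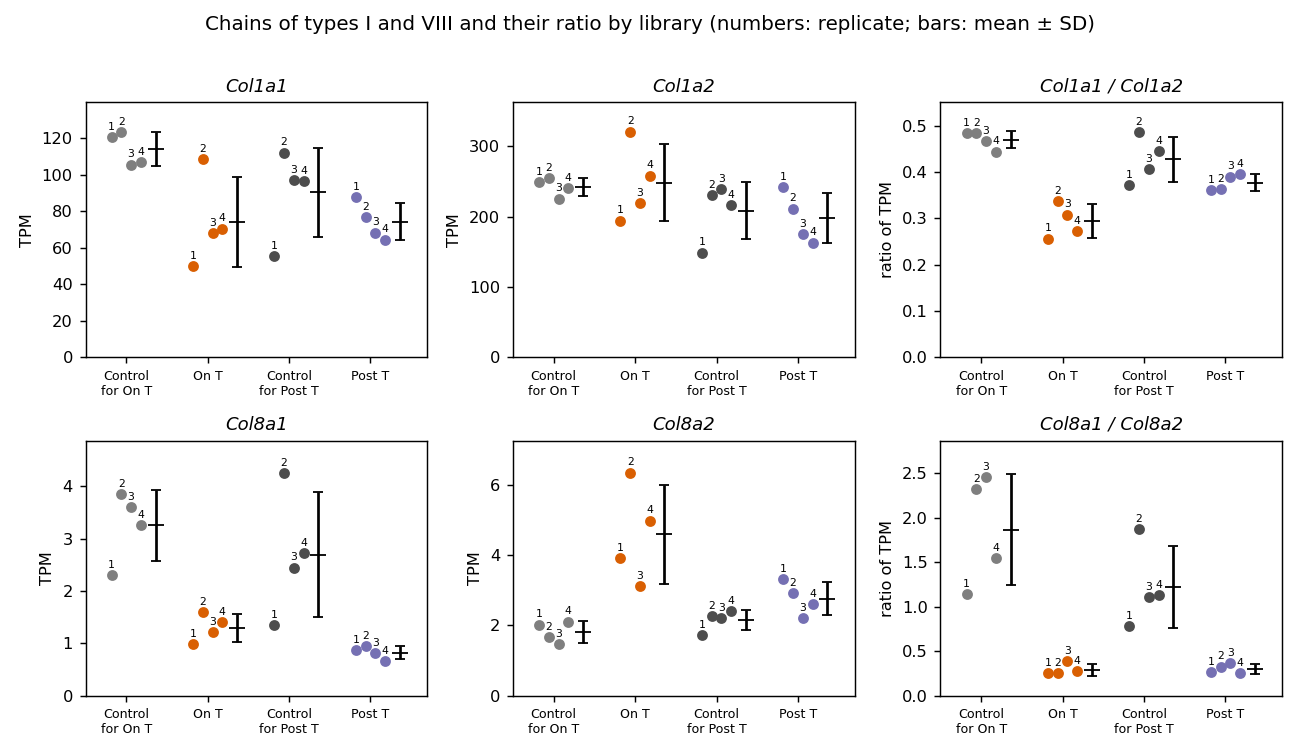
TPM of the chains of type I (top) and type VIII (bottom) and their ratio in each library, with replicate numbers above the points and mean ± SD beside them. The Col1a1 to Col1a2 ratio is lower in all On T libraries than in their controls, and the Col8a1 to Col8a2 ratio is below 0.4 in all 8 treated libraries and above 0.7 in all 8 controls.

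Multiplexins and the anchoring fibril chain fell in both comparisons. Col15a1 (chr4:47208161-47313167), whose product ties basement membranes to nearby fibrils, measured 37.5, 54.8, 42.8 and 46.9 TPM in On T controls and 14.4, 34.7, 14.4 and 17.6 in On T. The On T libraries lay below the controls, library 2 just below the lowest of them. Its means were 45.5 ± 7.30 and 20.3 ± 9.73 TPM (SD, n = 4; log2 fold change -1.16 with SE 0.18 and edgeR adjusted p = 0.000717). After testosterone it measured 26.1, 45.2, 45.5 and 52.2 TPM in controls and 14.7, 18.6, 19.5 and 15.9 in Post T, without overlap (log2 fold change -1.32 with SE 0.19 and edgeR adjusted p = 9.59e-05). Col18a1, whose product releases the angiogenesis inhibitor endostatin, measured 39.6, 59.8, 46.2 and 54.6 TPM in On T controls and 29.0, 37.2, 31.6 and 37.6 in On T (log2 fold change -0.59 with SE 0.14 and edgeR adjusted p = 0.0107). In the Post T cohort Col18a1 measured 34.7, 39.4, 42.5 and 59.3 TPM in controls and 29.6, 23.2, 22.5 and 24.1 in Post T (log2 fold change -0.79 with SE 0.14 and edgeR adjusted p = 0.000659). Col18a1 did not overlap between groups in either cohort.

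Col7a1 forms the fibrils that anchor epithelial basement membranes. It measured 2.57, 3.29, 4.51 and 2.17 TPM in On T controls and 1.04, 2.24, 1.38 and 0.67 in On T, and 0.51, 2.72, 4.03 and 1.96 TPM in Post T controls and 1.06, 1.22, 1.02 and 1.90 in Post T. On this scale the groups overlapped in both cohorts. As CPM, counts scaled to library size, which take no account of transcript length, it measured 6.96, 9.26, 10.2 and 9.77 in On T controls and 2.09, 3.21, 3.41 and 2.97 in On T, without overlap. The Post T cohort gave 2.57, 7.84, 8.20 and 5.93 CPM in controls and 2.31, 2.7, 3.29 and 2.28 in Post T, where only control library 1 lay among the Post T libraries. The count-based log2 fold changes were -1.64 with SE 0.28 and edgeR adjusted p = 0.00121 on testosterone and -1.22 with SE 0.28 and edgeR adjusted p = 0.00678 afterwards. With limma on log2(TPM + 1) they were -0.84 (adjusted p = 0.120) and -0.41 (adjusted p = 0.488), so the calls rest on counts and not on TPM.

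**Figure D5:**
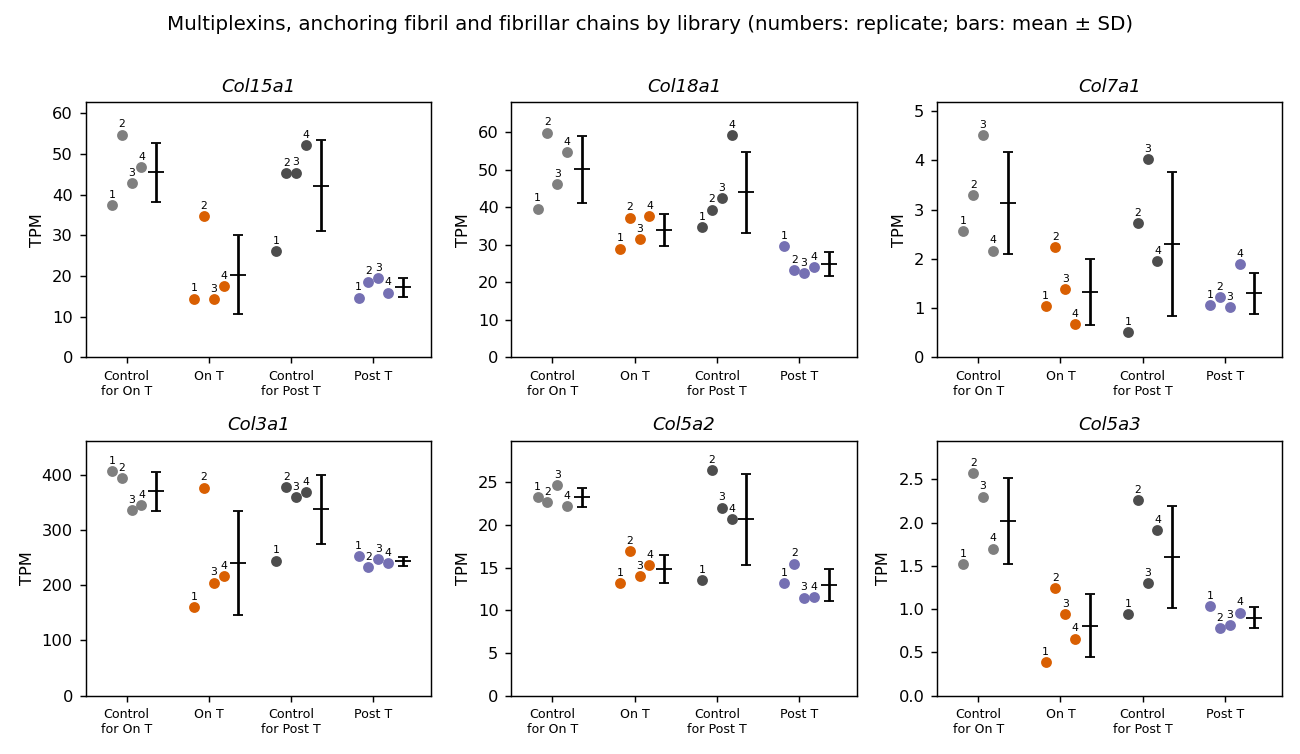
TPM in each library of the multiplexins Col15a1 and Col18a1, the anchoring fibril chain Col7a1 and the fibrillar chains Col3a1, Col5a2 and Col5a3, with replicate numbers above the points and mean ± SD beside them. Treated libraries lie low in every panel, with On T library 2 the highest On T point of Col3a1 and Col15a1, and Post T control library 1 the lowest of its group throughout.

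Among the type VI genes, whose products form beaded filaments around cells, Col6a4 rose in both comparisons. It measured 68.1, 53.1, 49.2 and 48.2 TPM in On T controls and 71.0, 112, 57.3 and 76.3 in On T (log2 fold change 0.50 with SE 0.13 and edgeR adjusted p = 0.0273), and 48.9, 75.8, 66.0 and 61.4 TPM in Post T controls and 71.5, 80.6, 123 and 67.6 in Post T (log2 fold change 0.49 with SE 0.13 and edgeR adjusted p = 0.023). The groups overlapped in both cohorts, and the call was lost on leaving out any 1 of 6 libraries on testosterone (adjusted p at most 0.0888) and any 1 of 4 afterwards (at most 0.0688). With limma on log2(TPM + 1) the log2 fold changes of Col6a4 were 0.50 (adjusted p = 0.192) and 0.41 (adjusted p = 0.270), so neither call held on TPM. The chains of the classical type VI trimer passed no test in either comparison. Col6a1 averaged 166 ± 25.2 TPM in On T controls, 128 ± 23.6 in On T, 173 ± 26.3 in Post T controls and 140.4 ± 21.8 in Post T (SD, n = 4; edgeR adjusted p = 0.107 and 0.256). Col6a2 averaged 101 ± 18.1, 84.8 ± 15.2, 89.6 ± 21.3 and 88.5 ± 16.2 TPM in the same order (edgeR adjusted p = 0.366 and 0.941). Col6a3 averaged 58.3 ± 6.04, 54.5 ± 25.8, 49.1 ± 11.3 and 42.1 ± 3.17 TPM (edgeR adjusted p = 0.896 and 0.88), and its On T spread came from library 2, at 93.2 TPM beside 39.4 to 43.0 in the others. Without that library Col6a1 passed on testosterone (log2 fold change -0.48, edgeR adjusted p = 0.0314). Over all omissions of 1 library this p ran from 0.0314 to 0.288.

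Of the 7 FACIT members, which decorate fibril surfaces, Col22a1 was called after testosterone. It measured 1.08, 0.85, 0.89 and 0.53 TPM in Post T controls and 1.55, 1.94, 1.94 and 2.59 in Post T, without overlap (log2 fold change 1.03 with SE 0.29 and edgeR adjusted p = 0.0259). In the On T cohort it measured 1.99, 0.58, 1.21 and 1.61 TPM in controls and 1.26, 0.87, 2.91 and 0.68 in On T (log2 fold change 0.69 with SE 0.28 and edgeR adjusted p = 0.158). As CPM it measured 3.54, 2.14, 2.73 and 2.71 in these controls and 3.81, 3.80, 7.78 and 2.63 in On T, so the scales differ for this gene. The Post T call was lost on leaving out any 1 of 5 libraries, with an adjusted p of at most 0.0901. Col23a1, a transmembrane collagen, measured 1.53, 1.51, 1.03 and 1.64 TPM in On T controls and 2.17, 3.03, 1.57 and 2.41 in On T (log2 fold change 0.69 with SE 0.19 and edgeR adjusted p = 0.0273). Its groups overlapped through On T library 3, and its call was lost on leaving out any 1 of 5 libraries (adjusted p at most 0.0820). After testosterone Col23a1 measured 1.05, 1.92, 1.88 and 1.75 TPM in controls and 2.12, 2.12, 2.05 and 2.05 in Post T, without overlap (log2 fold change 0.39 with SE 0.19 and edgeR adjusted p = 0.223).

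The 23 members called in neither comparison were 5 fibrillar genes, Col4a5 and 17 of other classes, with mean levels from 0.153 TPM (Col10a1) to 224 TPM (Col1a2). Their log2 fold changes ran from -0.67 to 1.23 on testosterone and from -1.32 to 0.46 afterwards, with smallest edgeR adjusted p-values of 0.0563 and 0.0661. The value of 1.23 belonged to Col14a1, a FACIT chain, which averaged 2.16 ± 0.841 TPM in On T controls and 5.23 ± 2.94 in On T (SD, n = 4), and 2.75 ± 0.423 and 1.98 ± 1.01 in the Post T cohort.

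Whether the effect after testosterone differed from that on testosterone was tested as the difference of the log2 fold changes, Post T effect minus On T effect. EdgeR called 0 of 41 members, beside 3.25% of all genes (2.93% higher and 0.324% lower). At an unadjusted p under 0.05 there were 8 members, Col4a3, Col4a4, Col4a5, Col4a6, Col8a2, Col13a1, Col14a1 and Col26a1, all with a lower value after testosterone, which is 19.5% of the members beside 14.3% of all genes. DESeq2 called Col4a3, Col8a2 and Col14a1. The differences were -0.93 for Col8a2 (edgeR adjusted p = 0.0698), -0.83 for Col4a3 (adjusted p = 0.11), -0.70 for Col4a4 (adjusted p = 0.201) and -1.74 for Col14a1 (adjusted p = 0.11). Leaving out On T library 3 brought Col8a2 (adjusted p = 0.0229) and Col14a1 (adjusted p = 0.0146) past the threshold. Leaving out Post T control library 1 did so for Col4a3 (adjusted p = 0.0470). Over all omissions of 1 library the edgeR adjusted p reached at most 0.148 for Col8a2, 0.215 for Col14a1 and 0.212 for Col4a3. For Col4a1 and Col4a2, called only after testosterone, the differences were -0.31 and -0.32 (edgeR adjusted p = 0.569 and 0.566). For Col3a1 and Col1a1, called only on testosterone, they were 0.27 and 0.40 (edgeR adjusted p = 0.57 and 0.542).

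Genes that make, bind and break down collagen were counted from lists, and values are means ± SD of 4 libraries. Of 32 genes of collagen biosynthesis, 1 rose (Adamts2) and 4 fell (Creb3l1, Loxl3, P4ha2 and Pcolce2) on testosterone. Afterwards 4 fell (Creb3l1, Loxl3, P3h4 and Tll2), so Creb3l1 and Loxl3 fell in both comparisons. The genes called were 15.6% and 12.5% of the list, beside 9.27% and 12.3% of all genes. The share afterwards was thus at that of all genes, and the genes named here are single genes and not a result about the list. Pcolce2, an enhancer of procollagen processing, averaged 4.35 ± 2.27 TPM in On T controls and 0.328 ± 0.0991 in On T (log2 fold change -4.03 with SE 0.60 and edgeR adjusted p = 0.000422). Creb3l1, a transcription factor that drives collagen genes, averaged 34.9 ± 5.18 TPM in On T controls and 19.4 ± 5.31 in On T (log2 fold change -0.84 with SE 0.17 and edgeR adjusted p = 0.00371). P4ha2, a subunit of the enzyme that hydroxylates collagen prolines, averaged 13.7 ± 3.55 TPM in On T controls and 7.22 ± 1.22 in On T (log2 fold change -0.94 with SE 0.19 and edgeR adjusted p = 0.00523), so these 3 genes fell. After testosterone P3h4, which assists hydroxylation of collagen lysines, averaged 89.5 ± 26.5 TPM in Post T controls and 50.9 ± 6.26 in Post T (log2 fold change -0.81 with SE 0.20 and edgeR adjusted p = 0.0108). Loxl3, a lysyl oxidase that cross-links collagen, averaged 8.43 ± 1.66 TPM in Post T controls and 6.07 ± 0.575 in Post T (log2 fold change -0.50 with SE 0.14 and edgeR adjusted p = 0.0228). Tll2, a low-level gene of this list, averaged 0.892 ± 0.811 TPM in Post T controls and 0.0525 ± 0.0395 in Post T (log2 fold change -4.12 with SE 0.97 and edgeR adjusted p = 0.00853), and all 3 were lower.

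Of 16 tested proteoglycans and fibril-associated proteins, 6 rose (Aspn, Dcn, Fmod, Ogn, Omd and Prelp) and 2 fell (Fn1 and Sparc) on testosterone, 50% of the list beside 9.27% of all genes, and 2 rose and 1 fell afterwards, 18.8% beside 12.3%. Aspn, a small leucine-rich proteoglycan that binds collagen, averaged 21.5 ± 4.69 TPM in On T controls and 50.9 ± 18.3 in On T (log2 fold change 1.23 with SE 0.21 and edgeR adjusted p = 0.00135). Ogn, of the same family, averaged 100.0 ± 12.1 TPM in On T controls and 186 ± 68.0 in On T (log2 fold change 0.89 with SE 0.18 and edgeR adjusted p = 0.00436). Prelp, a proteoglycan that links collagen to basement membranes, averaged 15.4 ± 1.08 TPM in On T controls and 31.4 ± 14.2 in On T (log2 fold change 1.02 with SE 0.21 and edgeR adjusted p = 0.00479). These fibril binders were thus higher on testosterone where Col3a1 and Col5a2 were lower. Stromal marker sums were also higher in On T, as given above, with 3 of 8 markers rising and 2 of 8 with a negative log2 fold change. The part of these markers was not tested. After testosterone Aspn averaged 25.7 ± 5.08 TPM in Post T controls and 40.8 ± 7.31 in Post T (log2 fold change 0.71 with SE 0.21 and edgeR adjusted p = 0.0348), and Ogn averaged 101 ± 18.9 TPM in Post T controls and 157 ± 12.5 in Post T (log2 fold change 0.68 with SE 0.18 and edgeR adjusted p = 0.0171). Sparc, a collagen-binding matrix protein, averaged 1023 ± 84.8 TPM in Post T controls and 714 ± 21.8 in Post T (log2 fold change -0.48 with SE 0.13 and edgeR adjusted p = 0.0169).

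Of 16 other basement membrane genes, 2 rose on testosterone and 1 afterwards (12.5% and 6.25%, beside 9.27% and 12.3% of all genes), so the list lay near or below all genes in both comparisons. Lama4, a laminin chain of vessel walls, averaged 25.2 ± 2.02 TPM in On T controls and 34.9 ± 8.90 in On T (log2 fold change 0.41 with SE 0.09 and edgeR adjusted p = 0.00549). Lama2, a laminin chain of muscle, averaged 17.2 ± 3.56 TPM in On T controls and 29.5 ± 9.42 in On T (log2 fold change 0.70 with SE 0.16 and edgeR adjusted p = 0.00957). Lama4 averaged 23.4 ± 1.65 TPM in Post T controls and 39.0 ± 7.02 in Post T (log2 fold change 0.60 with SE 0.09 and edgeR adjusted p = 0.000112), so it rose where Col4a1 and Col4a2 fell. Of 10 collagen receptors, 1 fell on testosterone and 1 rose afterwards, 10% in each comparison, which is about the share of all genes. Ddr1, a receptor kinase for collagen, averaged 54.5 ± 6.39 TPM in On T controls and 36.8 ± 3.95 in On T (log2 fold change -0.55 with SE 0.14 and edgeR adjusted p = 0.0178). Lair1, an inhibitory collagen receptor of immune cells, averaged 3.46 ± 0.922 TPM in Post T controls and 8.58 ± 0.792 in Post T (log2 fold change 1.35 with SE 0.21 and edgeR adjusted p = 0.000227). Macrophage markers rose in the same comparison, as given above, and their part was not tested.

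Of 9 genes of collagen breakdown, 1 rose and 2 fell on testosterone, and 1 rose and 1 fell afterwards, 33.3% and 22.2% of a short list beside 9.27% and 12.3% of all genes. Timp1, an inhibitor of matrix metalloproteinases, averaged 348 ± 158 TPM in On T controls and 29.4 ± 3.92 in On T (log2 fold change -3.54 with SE 0.33 and edgeR adjusted p = 4.14e-06). It averaged 191 ± 78.1 TPM in Post T controls and 54.2 ± 8.53 in Post T (log2 fold change -1.74 with SE 0.31 and edgeR adjusted p = 0.000815). Timp1 was thus lower in both treated groups. Mmp14, a membrane-bound collagenase, averaged 146 ± 16.3 TPM in On T controls and 105 ± 6.21 in On T (log2 fold change -0.46 with SE 0.11 and edgeR adjusted p = 0.00985). Ctsk, which encodes the collagen-degrading protease cathepsin K, averaged 20.1 ± 3.31 TPM in On T controls and 28.3 ± 3.21 in On T (log2 fold change 0.48 with SE 0.12 and edgeR adjusted p = 0.0141). Ctsk averaged 19.9 ± 1.40 TPM in Post T controls and 41.2 ± 1.43 in Post T (log2 fold change 1.09 with SE 0.12 and edgeR adjusted p = 5.79e-06), so it rose in both comparisons. Macrophages express Ctsk, and 2 of 5 macrophage markers rose on testosterone, where 2 others had a log2 fold change below 0. Afterwards 3 of the 5 rose, and the part of these markers was not tested.

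Promoters were found in the RefSeq table (GRCm38.p6) for 33 of the 41 members, and the 250 bases before each start were searched on both strands. The GC box GGGCGG occurred in 21 of 33 (63.6%), beside 32.9% of 27025 promoters of the same length. The androgen receptor half-site AGAACA occurred in 1 of 33 (3.0%, Col20a1), beside 16.2% of all. The TATA box TATAAA occurred in 5 (15.2%, beside 13.0%) and the CCAAT box in 12 (36.4%, beside 34.5%). These are matches of letters in a short window and were not tested against the fold changes.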

How the data were processed

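RNA was measured in 16 ovary libraries of 4 groups. Expected counts, deposited as estimates per gene without normalisation, were all whole numbers. For TPM the authors scaled by transcript length and depth, and their FPKM table was left out. The tools in the submitters' processing notes are RSEM 1.3.3, STAR 2.7.8a, cutadapt 2.3 and FastQC 0.11.8, and the build is GRCm38. Per the labels' protocols the kit was directional, while strand use in counting and the annotation release are not given in the sources used here. There were 0 unmapped sample columns.

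Counts were fitted with edgeR 4.0.16 in R 4.3.3. Genes were kept by filterByExpr (minimum count 10), TMM scaled the libraries, and 1 fit of group means held all 16 of them (common biological coefficient of variation 0.179), and the quasi-likelihood F test was adjusted by Benjamini-Hochberg over 18833 genes at 0.05. Standard errors are those implied by fold change and F. Levels are TPM. In each library 3 counts came to 0.057 to 0.113 CPM (counts scaled to library size), which limits only the rarest members, and covers counting error only. Simulated counts with known changes were used to test the scripts.

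The members and gene lists were chosen with earlier results of these data known. Named with values were all members called in either treatment comparison and 12 fixed chains (Col1a1, Col1a2, Col3a1, Col5a1, Col5a2, Col4a1, Col4a2, Col6a1, Col6a2, Col6a3, Col15a1 and Col18a1), and up to 3 called genes per list and comparison with the smallest p. Col14a1, the genes listed for the difference of effects and the overlap counts were added after their values were seen. Mice are separate animals per the labels. Positions came from GENCODE and promoters from RefSeq, both on GRCm38. Alternatives were median-of-ratios factors, other filters, DESeq2 1.42.0, limma 3.58.1 on log2(TPM + 1) and log2(TPM + 0.1), only the libraries compared, a replicate block, age as a covariate, a member minimum of 1 TPM and leaving out libraries.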

Additional observations from a re-analysis of the deposited data

Results flagged for a closer look

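Within groups of 4, 10 of 148 sets of values held a library far from the other 3 by Dixon's test at the 95% level. Chance alone flags about 1 in 20 groups, which here is 7.4. On T library 2 was high for Col15a1 (34.7 TPM, others 14.4 to 17.6), Col6a1 (163.2 TPM, others 112.8 to 119.4) and Col6a3 (93.2 TPM, others 39.4 to 43.0). The same library was high for the TPM ratios of Col5a1 to Col5a2 (3.17, others 2.01 to 2.20) and of Col6a3 to Col6a1 (0.571, others 0.349 to 0.367). Post T control library 1 was low for Col3a1 (244 TPM, others 359.7 to 377), for the summed fibrillar TPM (509 TPM, others 784 to 837) and for the summed TPM of all members (1266 TPM, others 1791 to 1892). In that library the ratio of Col6a1 to Col6a2 was high (2.49, others 1.76 to 1.85). Post T library 3 was low for Col4a3 (1.46 TPM, others 2.09 to 2.21).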

How the results depend on the processing

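The member counts of 14 on testosterone and 10 afterwards became 9 and 6 with limma on log2(TPM + 1), and 9 and 6 on log2(TPM + 0.1). Of all 18833 genes, edgeR called 1746 on testosterone and 2315 afterwards. With limma these became 1130 and 1860 on log2(TPM + 1), and 1169 and 1859 on log2(TPM + 0.1). DESeq2 called 3 members and 999 genes for the difference of effects, where edgeR called 0 and 612. Between the controls edgeR called 0 genes, no count filter gave 20, DESeq2 173, and leaving out both libraries that stood apart gave 1. Leaving out each library gave 11 to 16 members on testosterone, 7 to 12 afterwards and 0 to 2 for the difference, with 1081 to 2071, 1753 to 2568 and 453 to 735 genes, and 0 to 9 between the controls. The lowest of the On T counts, 1081 and 1094 genes, were those without On T control libraries 4 and 2.

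Signs reversed only in genes that were not called. With limma, Col6a2 after testosterone became -0.0011 on log2(TPM + 1) and -9e-04 on log2(TPM + 0.1), and Col22a1 on testosterone became -0.0099 on the latter. Without both libraries that stood apart, Col6a2 after testosterone was -0.0399 and Col1a2 on testosterone -0.084. Leaving out 1 library at a time gave -0.0888 to 0.146 for Col1a2 and -0.2216 to 0.0432 for Col6a3 on testosterone, and -0.1007 to 0.0792 for Col1a2, -0.0518 to 0.156 for Col6a2 and -0.1893 to 0.0418 for Col6a3 afterwards. The cause was not tested.

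Deviations of libraries with the same replicate number correlated at -0.02 to 0.23 across genes. With 4 libraries per group, these values cannot decide whether the numbers pair the mice. With a replicate block 14 members were called on testosterone and 12 afterwards, beside 1676 and 2274 genes. Col15a1, Col8a1, Col4a3, Col4a4, Col4a6, Col8a2, Col3a1, Col5a2 and Col5a3 on testosterone, and Col15a1, Col18a1, Col8a1, Col4a1, Col4a2 and Col5a2 afterwards, kept direction and call in every setting run. Members near 0.1 TPM rest on few counts (Col10a1, 2 to 30 per library).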

Other observations

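Type IX collagen, a FACIT known mainly from cartilage and assembled there from the products of Col9a1, Col9a2 and Col9a3, was represented in the ovary mainly by Col9a2. Col9a2 averaged 48.9 TPM over the 16 libraries, the tenth of the collagen genes by level, while Col9a3 averaged 1.03 TPM and Col9a1 0.035 TPM. Col9a2 ranged from 22.9 to 78.6 TPM among libraries, and its groups overlapped (45.2 ± 23.3 TPM in On T controls, 56.0 ± 15.3 in On T, 42.9 ± 9.94 in Post T controls and 51.6 ± 12.4 in Post T, SD, n = 4). Its edgeR adjusted p was 0.579 on testosterone and 0.651 afterwards. The genes of Col9a2 and Col9a3 lie on chromosomes 4 and 2, and exons of Tcfl5 on the other strand cover 6.07% of the exon bases of Col9a3.

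Col11a1, a fibrillar chain also known mainly from cartilage, reached 20.3 ± 4.98 TPM in On T controls and 29.7 ± 10.4 in On T (log2 fold change 0.59, SE 0.27, edgeR adjusted p = 0.218), and 19.0 ± 6.38 in Post T controls and 15.7 ± 3.99 in Post T (adjusted p = 0.780). It was the fibrillar member with the highest log2 fold change on testosterone. The transmembrane collagens Col13a1, Col17a1, Col23a1 and Col25a1 had log2 fold changes of 0.15 to 0.69 on testosterone, with Col23a1 called, and the first of them had -0.81 afterwards (edgeR adjusted p = 0.0661).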
